A study of Mus musculus with 6 samples.

Results

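The feeder fibroblast and extracellular matrix genes are 39 genes for collagens, matrix glycoproteins, matrix enzymes, fibroblast surface proteins and contractile proteins. They were followed in mouse embryonic stem (ES) cell cultures that were wild type or knocked out for Zscan5b, which encodes a DNA-binding protein of the SCAN zinc finger family. The members were found by gene name among the non-control probes of the scanner tables. All 39 genes were on the array, with 51 probes among 39429 probes for 30222 gene names. Of these probes, 47 were detected above background on 3 or more of the 6 arrays. A Timp2 probe among them had no usable wild type value, so 46 probes entered the test, for 38 of the 39 genes. The 4 probes below the detection minimum included the only probe of Col5a2.

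Fibroblasts are the main makers of connective tissue matrix. They secrete fibrillar collagens, which are folded by the chaperone HSP47 and cross-linked outside the cell by lysyl oxidases, and they coat the fibres with small leucine-rich proteoglycans and adhesive glycoproteins. Mouse ES cells are often kept on a layer of embryonic fibroblasts that can no longer divide, called feeders, which supply factors and a surface for attachment. RNA from feeders that are lysed together with the ES cells enters the same sample. Several matrix genes, among them those for fibronectin, SPARC and the collagen chaperone, are also known to be active in early embryonic cells.

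The groups were 3 wild type and 3 Zscan5b knockout cultures, called biological replicates in the series' design text. Both genotypes were grown with leukemia inhibitory factor at 1000 IU/ml on embryonic fibroblast feeders inactivated with mitomycin C at 10 µg/ml, so both groups carried feeders. How the knockout was made, whether its replicates were separate clones and whether feeders were removed before lysis are not given in the sources used here. One-colour Agilent arrays were hybridised with total RNA labelled with Cy3. Levels are log2 signals after subtraction of the 75th percentile of the array, and every difference is knockout minus wild type on that log2 scale. A gene is represented by its tested probe with the highest mean over the 6 arrays. Levels are not set against each other between probes, except in naming brighter or dimmer probes and in summed signals.

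The 75th percentile of signal ranged from 852 to 1028 over the arrays, and between 25360 and 27737 probes were well above background. The Zscan5b probe read lower in the knockout without passing the test (log2 difference -1.32 ± 0.29, SE, n = 3 per group, limma adjusted p = 0.107). This probe was well above background on all 6 arrays, the knockout arrays included. The labels do not say how the gene was knocked out, so whether the probe lies in the changed part is not known. All 26 probes of the 19 pluripotency genes on the array were well above background in all 6 cultures. All 18 probes of a list of macrophage genes were too, so detection alone does not mark a cell type. Each genotype lay on a slide and scan of its own, so slide and genotype cannot be told apart in any comparison here.

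Most members read lower in the knockout on average, and none passed the test. The log2 difference was negative for 37 of the 38 tested genes, against 53.6% of all 20452 tested genes, and its median was -0.77 against -0.03. The exception was Fn1, whose 0.04 turned to -0.02 when arrays were centred on their median signal. No member was called at a limma adjusted p under 0.05: 0 of 46 probes, where 0.465% of all probes were called, and 0 of 38 genes, where 0.509% of all genes were called. At an unadjusted p under 0.05, 11 member genes were lower and 0 higher, against 12.1% and 9.64% of all genes. Adjusted p-values of the members' representative probes ran from 0.0961 to 0.982. In these bulk samples, fewer cells of a type and less RNA per cell cannot be told apart.

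The members' median range within wild type, 1.49 on the log2 scale, was wider than their median difference between genotypes. The median deviation of the 38 members from their own mean was 0.85 and 0.84 in wild type replicates 2 and 3, but -0.53 in wild type replicate 1. It was -0.53, -0.14 and -0.47 in knockout replicates 1, 2 and 3. Wild type replicate 1 was thus close to the knockout cultures for these genes, and the other wild type cultures stood above it. Over all tested probes, its differences had an SD of 0.49, 0.56 and 0.60 against knockout replicates 1, 2 and 3. The SD was 0.64 and 0.51 against wild type replicates 2 and 3. Its nearest array over all probes was therefore also a knockout array. This was not particular to wild type replicate 1. For wild type replicate 2 the SD was 0.52 against knockout replicate 2, and 0.64 and 0.57 against wild type replicates 1 and 3. For 32 of the 38 members (84.2%), wild type replicates 2 and 3 were both above wild type replicate 1 and above every knockout array. The same order held for 10.8% of all tested genes. This order was defined after the values had been seen, so its count is a description.

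**Figure D1:**
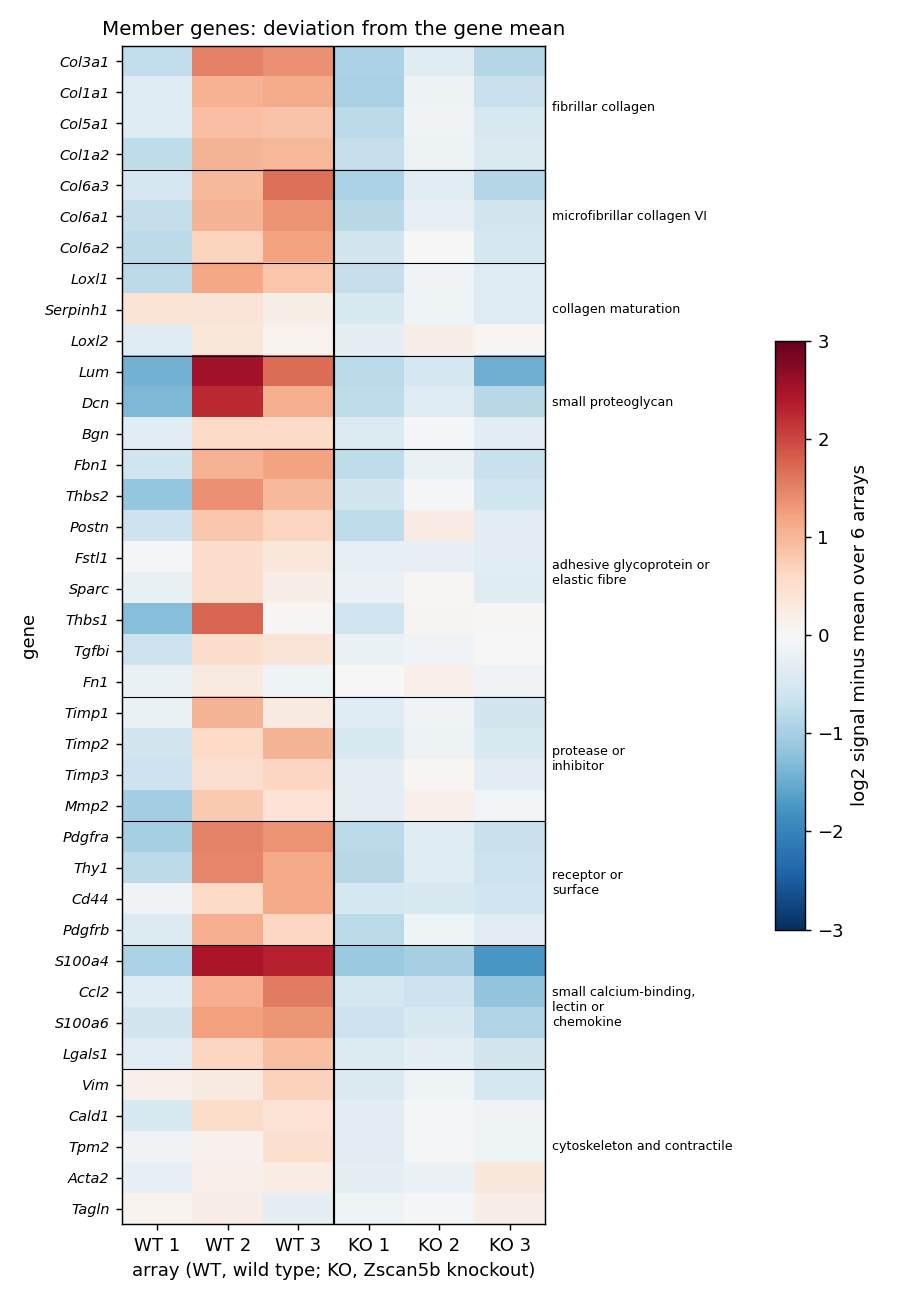
Heat map of the 38 tested members (rows, grouped by role) on the 6 arrays (columns), coloured by log2 signal minus the gene's mean over the arrays. Wild type replicates 2 and 3 are red in nearly every row, whereas wild type replicate 1 is mostly blue like the knockout arrays, with medians of 0.85, 0.84 and -0.53 for wild type replicates 2, 3 and 1.

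The RefSeq promoter table (mouse build GRCm38.p6) held 28 promoters of 25 members. The sequences below are the 100 bases before the start of 3 members whose promoter holds the letters TATAAA, the core of a TATA box, on the gene's own strand between 20 and 40 bases before the start. They are shown because they are the only member promoters in the table with this placement. Capitals mark TATAAA. The positions are chr3:54361007-54361106 for Postn (1 of its 2 promoters in the table), chr3:90603670-90603769 for S100a4 and chr2:13574211-13574310 for Vim, all on the plus strand.
Postn: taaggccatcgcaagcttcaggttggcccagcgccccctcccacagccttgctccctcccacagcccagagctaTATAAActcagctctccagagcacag
S100a4: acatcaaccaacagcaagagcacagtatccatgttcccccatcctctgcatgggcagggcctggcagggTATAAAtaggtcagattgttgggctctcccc
Vim: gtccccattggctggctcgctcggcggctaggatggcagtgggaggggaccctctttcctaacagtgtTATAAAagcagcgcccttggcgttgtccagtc

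TATAAA began 26 bases before the start in Postn, 31 in S100a4 and 32 in Vim. Such a placement was found in 3 of the 28 member promoters (10.7%) and in 655 of all 32851 promoters (1.99%). Anywhere in the window, which spans 250 bases before to 50 bases after the start, and on either strand, TATAAA was present in 6 member promoters (21.4%, against 13.6% of all). CCAAT was present in 8 (28.6%, against 37.4%), the GC box GGGCGG in 15 (53.6%, against 35.7%), the AP-1 motif TGANTCA in 2 (7.14%, against 7.81%) and the TEAD motif GGAATG in 5 (17.9%, against 14.7%). The CArG box, known from contractile genes, was in 0 member promoters and in 1.63% of all, which says only that these letters are not in the windows searched. Each motif was counted on its own, so letters shared by overlapping matches count under each. A match is a description of letters and not a shown binding site.

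The fibrillar collagens form the tensile fibres of connective tissue, and their wild type values split by culture. Col1a1, the main chain of type I collagen (probe at mm9 chr11:94813115-94813174), read 1.73, 3.16 and 3.22 across wild type replicates 1 to 3 and 1.14, 1.97 and 1.45 across knockout replicates 1 to 3. Wild type replicate 1 fell inside the knockout range and the other wild type cultures lay above it. The log2 difference of Col1a1 was -1.18 ± 0.44 (SE, n = 3 per group), a 2.27-fold lower mean in the knockout (limma adjusted p = 0.205). Col3a1, type III collagen (chr1:45405589-45405648), had the largest difference of the fibrillar collagens. It read 0.77, 3.01 and 2.87 in the wild type cultures and 0.56, 1.15 and 0.66 in the knockout cultures, a log2 difference of -1.43 ± 0.61 (adjusted p = 0.235). Its wild type range of 2.25 was wider than that difference.

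Col1a2, the partner chain of Col1a1 in type I collagen (chr6:4490619-4490678), had the smallest difference of this group. It read 2.26, 4.04 and 4.03 in the wild type cultures and 2.33, 2.86 and 2.60 in the knockout cultures (log2 difference -0.85 ± 0.49, limma adjusted p = 0.346). Here wild type replicate 1 was the lowest of all arrays. Col5a1, a chain of the type V collagen that regulates fibre thickness, averaged 0.35 ± 0.71 (SD, n = 3) over wild type and -0.58 ± 0.36 over knockout cultures. The single probe of its partner chain Col5a2 was detected in wild type replicates 2 and 3 and on no other array, and it was not tested. With knockout signals below the lowest detected signal of their array raised to it, its wild type mean was 1.43-fold higher. That mean includes wild type replicate 1, where the probe was not detected, so 1.43 is not a strict lower limit.

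Collagen VI makes beaded microfilaments around cells from 3 chains, and for each of them wild type replicates 2 and 3 stood above the other 4 arrays. Col6a3 (chr1:92663663-92663722) read -0.48, 1.00 and 1.69 in the wild type cultures and -0.91, -0.30 and -0.82 in the knockout cultures, a log2 difference of -1.41 ± 0.54 (limma adjusted p = 0.211). Col6a2 (chr10:76058931-76058990) read -2.73, -1.28 and -0.73 in the wild type cultures and -2.48, -1.95 and -2.47 in the knockout cultures, a log2 difference of -0.72 ± 0.50 (adjusted p = 0.417). Wild type replicate 1 overlapped the knockout arrays for Col6a3 and lay below them for Col6a2. A dim further probe of Col6a2 was detected in wild type replicates 2 and 3 alone. By the same calculation its wild type mean was 1.84-fold higher, again with the undetected wild type replicate 1 in that mean. Col6a1 averaged 1.31 ± 1.11 over wild type and 0.23 ± 0.30 over knockout cultures (log2 difference -1.08).

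Among the genes for collagen maturation, Serpinh1 had another order of arrays than the collagens. This gene encodes HSP47, the chaperone of procollagen in the endoplasmic reticulum. Its probe (chr7:106493971-106494030) read 3.09, 3.05 and 2.84 in the wild type cultures and 2.20, 2.54 and 2.29 in the knockout cultures. The wild type cultures lay close together, with replicate 1 the highest, and no knockout culture reached them. The log2 difference was -0.65 ± 0.13, or 1.57-fold, with the smallest p of all members (unadjusted 0.00259, limma adjusted p = 0.0961). Over the alternative settings it lay between -0.75 and -0.51, with adjusted p-values from 0.0616 to 0.320, and it was called in none.

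The lysyl oxidase relatives, which cross-link collagen and elastin, differed between each other. Loxl1 (chr9:58138570-58138629) read -1.28, 0.67 and 0.33 in the wild type cultures and -1.19, -0.60 and -0.87 in the knockout cultures, a log2 difference of -0.79 ± 0.51 (limma adjusted p = 0.382). It followed the collagens, with wild type replicate 1 the lowest array. Loxl2 (chr14:70095254-70095313) read -0.46, 0.25 and 0.03 in the wild type cultures and -0.39, 0.10 and -0.03 in the knockout cultures, and its log2 difference of -0.04 ± 0.22 (adjusted p = 0.924) changed sign in 5 alternatives. The other Loxl2 probes had the opposite sign, at 0.18 ± 0.10 and 0.43 ± 0.13. The dimmer of them read -2.09, -1.73 and -1.79 in the wild type cultures and -1.57, -1.39 and -1.36 in the knockout cultures (adjusted p = 0.166). It was the sole member probe higher in the knockout at an unadjusted p under 0.05.

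The small leucine-rich proteoglycans coat collagen fibres, and Lum and Dcn showed the widest spread between wild type cultures of all members. Lum, for lumican (chr10:97035210-97035269), read -2.09, 1.86 and 1.00 in the wild type cultures and -1.48, -1.17 and -2.14 in the knockout cultures. Its wild type range was 3.95 and its knockout range 0.97. The log2 difference of -1.85 ± 0.99 (limma adjusted p = 0.313) was therefore smaller than the spread within wild type. Dcn, for decorin, averaged 1.71 ± 1.82 over wild type and 0.39 ± 0.25 over knockout cultures (log2 difference -1.32), and its wild type range was 3.57. Bgn, for biglycan (chrX:70738554-70738613), read -0.95, -0.05 and -0.05 in the wild type cultures and -1.03, -0.68 and -0.94 in the knockout cultures, a log2 difference of -0.53 ± 0.27 (adjusted p = 0.289).

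The adhesive glycoproteins and the fibrillin Fbn1 were mixed. Fn1, for fibronectin, a glycoprotein that binds integrins and collagen (chr1:71632116-71632175), read 5.62, 6.08 and 5.67 in the wild type cultures and 5.82, 5.95 and 5.71 in the knockout cultures. The groups overlapped fully, with a log2 difference of 0.04 ± 0.16 (limma adjusted p = 0.905) that turned negative, to -0.02, with median centring. Fstl1, a secreted follistatin-like glycoprotein (chr16:37836492-37836551), read 3.64, 4.21 and 4.02 in the wild type cultures and 3.44, 3.44 and 3.34 in the knockout cultures. All wild type cultures stood above all knockout cultures, by a log2 difference of -0.55 ± 0.16 (adjusted p = 0.156). Fbn1, which builds elastic microfibrils (chr2:125126727-125126786), had the largest difference of this group at -1.10 ± 0.49 (adjusted p = 0.251). It read -1.82, -0.17 and -0.00027 in the wild type cultures and -1.98, -1.42 and -1.88 in the knockout cultures, so that wild type replicate 1 lay within the knockout range.

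Among the other glycoproteins, the thrombospondins Thbs1 and Thbs2, which modulate cell adhesion, and the periostin gene Postn varied widely between wild type cultures. Thbs1 averaged 1.17 ± 1.51 over wild type and 0.85 ± 0.38 over knockout cultures (SD, n = 3), and its log2 difference of -0.33 ± 0.73 became 0.17 with array weights. Thbs2 differed by -0.79 ± 0.65 and Postn by -0.56 ± 0.44 (limma adjusted p = 0.483 and 0.464). Sparc, for a collagen-binding protein also called osteonectin, differed by -0.33 ± 0.22 at its brighter probe and by 0.14 ± 0.23 at its other probe. Tgfbi, for a matrix protein induced by TGF-beta, differed by -0.20 ± 0.31.

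The matrix protease Mmp2 and the tissue inhibitors of metalloproteinases Timp1, Timp2 and Timp3 all had negative differences within the spread of the wild type cultures. Timp1 (chrX:20451802-20451861) read 3.13, 4.35 and 3.60 in the wild type cultures and 2.94, 3.22 and 2.79 in the knockout cultures, a log2 difference of -0.71 ± 0.31 (limma adjusted p = 0.247). Wild type replicate 1 again overlapped the knockout. Mmp2, a gelatinase (chr8:95376840-95376899), read -1.42, 0.39 and 0.04 in the wild type cultures and -0.70, -0.25 and -0.50 in the knockout cultures, a log2 difference of -0.15 ± 0.46 (adjusted p = 0.868) that was 0.10 with array weights. Timp2 differed by -0.71 ± 0.39 and Timp3 by -0.35 ± 0.34. A brighter Timp2 probe was marked non-uniform by the scanner software on all 3 wild type arrays and gave no tested value. With marked spots kept it read 2.38, 4.38 and 4.52 in the wild type cultures and 2.67, 3.02 and 2.64 in the knockout cultures, a log2 difference of -0.99 ± 0.57 (adjusted p = 0.340).

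The surface proteins on the list are known from mesenchymal cells, but not from these alone. Pdgfra is also among the extraembryonic endoderm genes counted below. Pdgfra, the alpha receptor for platelet-derived growth factor (chr5:75593888-75593947), read -3.39, -0.89 and -1.03 in the wild type cultures and -3.20, -2.76 and -3.05 in the knockout cultures. It had the largest difference of the group, -1.23 ± 0.66 (limma adjusted p = 0.315), and wild type replicate 1 was the lowest array. The beta receptor, Pdgfrb, read -3.58, -2.08 and -2.56 in the wild type cultures and -3.97, -3.30 and -3.52 in the knockout cultures, a log2 difference of -0.86 ± 0.40 (adjusted p = 0.260). Thy1, a surface glycoprotein used to sort fibroblasts, averaged 2.52 ± 1.22 over wild type and 1.30 ± 0.24 over knockout cultures (log2 difference -1.22).

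Cd44, the receptor for hyaluronan (chr2:102651398-102651457), was the one surface gene whose groups did not overlap. It read -1.71, -1.04 and -0.48 in the wild type cultures and -2.13, -2.07 and -2.22 in the knockout cultures, a log2 difference of -1.06 ± 0.30 (limma adjusted p = 0.146). A further Cd44 probe differed by -0.87 ± 0.38, with groups that overlapped. Of its untested probes, 1 was not well above background on any array and 1 was so in wild type replicates 2 and 3 alone. The latter read -7.90, -5.02 and -6.34 in the wild type cultures and -8.73, -7.55 and -8.32 in the knockout cultures. After knockout signals were raised to the lowest detected signals, its wild type mean was 0.85-fold the knockout mean. The undetected wild type replicate 1 stayed in the wild type mean as measured, so 0.85 does not show a higher knockout signal.

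The small calcium-binding proteins, the lectin Lgals1 and the chemokine Ccl2 had the lowest median of all roles, -1.44, and all 4 had an unadjusted p under 0.05. S100a4, also called fibroblast-specific protein (chr3:90409908-90409967), read 0.07, 3.47 and 3.36 in the wild type cultures and -0.09, 0.03 and -0.74 in the knockout cultures. Wild type replicate 1 was just above the highest knockout culture, and wild type replicates 2 and 3 stood far above all of these. The log2 difference was -2.57 ± 0.92, or 5.92-fold (limma adjusted p = 0.195), and a second probe gave -2.52 ± 0.90. S100a6, for calcyclin, averaged 5.37 ± 1.05 over wild type and 4.04 ± 0.23 over knockout cultures (log2 difference -1.33, adjusted p = 0.209).

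Ccl2, which draws monocytes (chr11:81850650-81850709), read 0.93, 2.38 and 2.85 in the wild type cultures and 0.77, 0.67 and 0.10 in the knockout cultures. Its groups did not overlap, and the log2 difference was -1.54 ± 0.50 (limma adjusted p = 0.170). This probe was spotted 10 times on each array, and the SD between spots was 0.052 to 0.11, far less than the spread between wild type cultures. Lgals1, for the galactoside-binding galectin-1 (chr15:78760566-78760625), read 3.91, 4.89 and 5.15 in the wild type cultures and 3.83, 3.97 and 3.67 in the knockout cultures, a log2 difference of -0.82 ± 0.32 (adjusted p = 0.216).

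**Figure D2:**
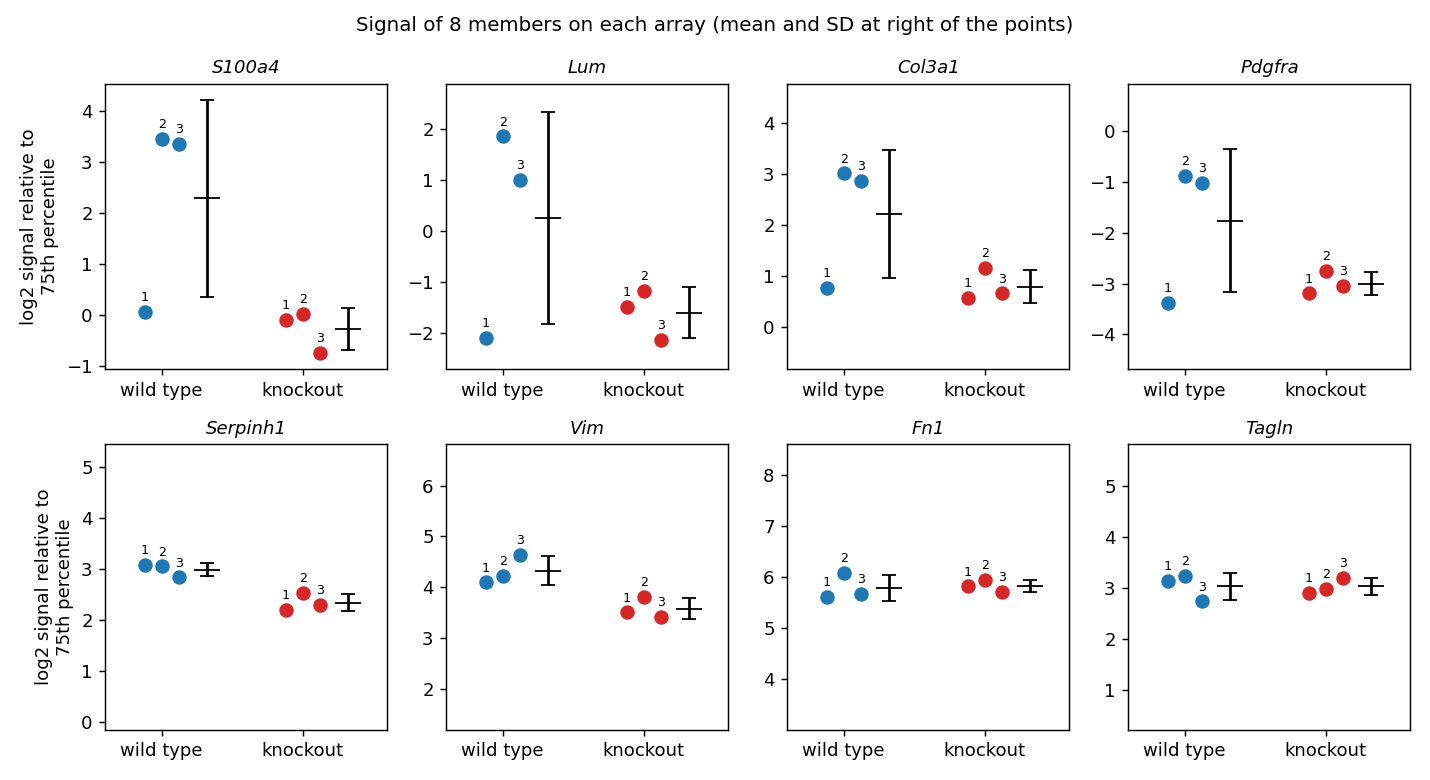
Log2 signal relative to the array's 75th percentile of 8 members on each array (numbered points are replicates, blue for wild type and red for knockout, with the group mean and SD beside them). Every panel spans the same number of log2 units. For S100a4, Lum, Col3a1 and Pdgfra, wild type replicate 1 lies with the knockout arrays, whereas Serpinh1 and Vim separate the groups and Fn1 and Tagln overlap.

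The cytoskeletal and contractile members had the median difference closest to 0, -0.33, and the narrowest median range of all roles in either genotype. Vim, for the intermediate filament vimentin of mesenchymal cells (chr2:13504232-13504291), was the exception within the group. It read 4.10, 4.23 and 4.64 in the wild type cultures and 3.51, 3.82 and 3.42 in the knockout cultures, without overlap, a log2 difference of -0.74 ± 0.18 or 1.67-fold (limma adjusted p = 0.121). Tagln, for the actin-binding protein transgelin (chr9:45738097-45738156), read 3.13, 3.23 and 2.73 in the wild type cultures and 2.90, 2.97 and 3.20 in the knockout cultures. Its log2 difference of -0.01 ± 0.17 (adjusted p = 0.982) became 0.11 with quantile normalisation. Acta2, for smooth muscle actin, differed by -0.08 ± 0.21, Cald1, for caldesmon, by -0.35 ± 0.28 and Tpm2, for beta-tropomyosin, by -0.33 ± 0.17.

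In all, the knockout arrays lay wholly below the wild type arrays for 6 members, Serpinh1, Fstl1, Vim, Cd44, S100a4 and Ccl2. That is 15.8% of the members, where 16.5% of all tested genes showed this separation, so the share was near the background. For 0 members did the knockout lie wholly above, where 12.6% of all genes did. These counts use the representative probe of each gene. At the other Loxl2 probes the knockout arrays did lie wholly above the wild type arrays.

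Counted array by array, the members were seldom highest in wild type replicate 1 or in the knockout, and seldom lowest in wild type replicates 2 and 3. The highest of the 6 arrays was wild type replicate 2 for 23 members and wild type replicate 3 for 13, whereas these arrays were highest for 23.2% and 18.3% of all genes. Wild type replicate 1 was highest for Serpinh1 and knockout replicate 3 for Acta2. The lowest array was wild type replicate 1 for 14 members (15.7% of all genes), knockout replicate 1 for 13 (9.66%) and knockout replicate 3 for 10 (23.1%), and wild type replicate 3 was lowest for Tagln. Compared with the range of the knockout arrays, wild type replicate 1 lay above it for 6 members, within it for 18 and below it for 14, against 41.5%, 25.0% and 33.5% of all genes. Wild type replicate 2 lay above the knockout range for 37 members and wild type replicate 3 for 33, against 40.3% and 38.6%.

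The spread within a genotype was wide in wild type and narrow in the knockout. The wild type range exceeded the knockout range for 36 of the 38 members, against 72.8% of all genes, the exceptions being Serpinh1 and Acta2. The median knockout range of the members was 0.47 beside their wild type median of 1.49, compared with medians of 0.24 in the knockout and 0.41 in wild type for all tested genes. The 6 arrays also differed in this way beyond the members: over all tested probes, pairs of arrays differed with an SD of 0.33 to 0.40 within the knockout and 0.51 to 0.64 within wild type.

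**Figure D3:**
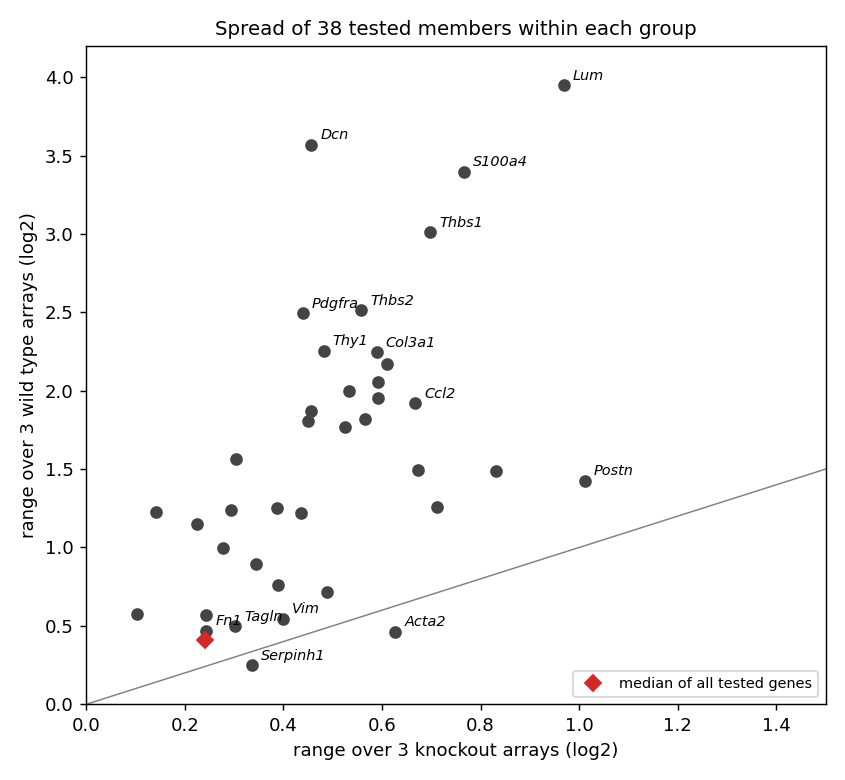
Range over the 3 wild type arrays (vertical, log2) against the range over the 3 knockout arrays (horizontal, log2) for the 38 tested members, with the axes on different scales. The grey line marks equal ranges, and the diamond marks the medians of all tested genes, 0.41 and 0.24. Of the members, 36 lie above the line, led by Lum at 3.95 and Dcn at 3.57.

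Leaving out wild type replicate 1 changed the outcome of the test for these genes. In that fit of 5 arrays, 19 of the 46 member probes were called, all lower in the knockout, where 2.4% of all probes were called and 1.64% were called lower. By gene, 17 of the 38 members were called lower (1.86% of all genes), and the median log2 difference of the members was -1.24. The called fibrillar and microfibrillar collagens were Col1a1 (-1.67), Col1a2 (-1.43), Col3a1 (-2.15), Col6a1 (-1.72) and Col6a3 (-2.02). The proteoglycans Dcn (-2.32) and Lum (-3.03) were called, as were Fbn1 (-1.67), Thbs2 (-1.57) and Loxl1 (-1.39). So were the surface genes Pdgfra (-2.04), Thy1 (-1.92) and Cd44 (-1.38), and S100a4 (-3.68), S100a6 (-1.94), Lgals1 (-1.19) and Ccl2 (-2.11). Their limma adjusted p-values lay between 0.0239 and 0.0479. Serpinh1 (-0.60) and Vim (-0.86) were not called without that culture, with adjusted p-values of 0.124 and 0.0987. Without wild type replicate 2 the members' median was -0.54 and 0 member probes were called, where 9.6% of all probes were called. At an unadjusted p under 0.05 there were 5 member probes of 46, against 33.1% of all probes. When wild type replicate 3 was left out, the median reached -0.58 and 0 member probes were called, as were 0.0% of all probes, with 5 member probes at an unadjusted p under 0.05 against 15.5% of all. The labels give no ground for leaving out any culture.

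**Figure D4:**
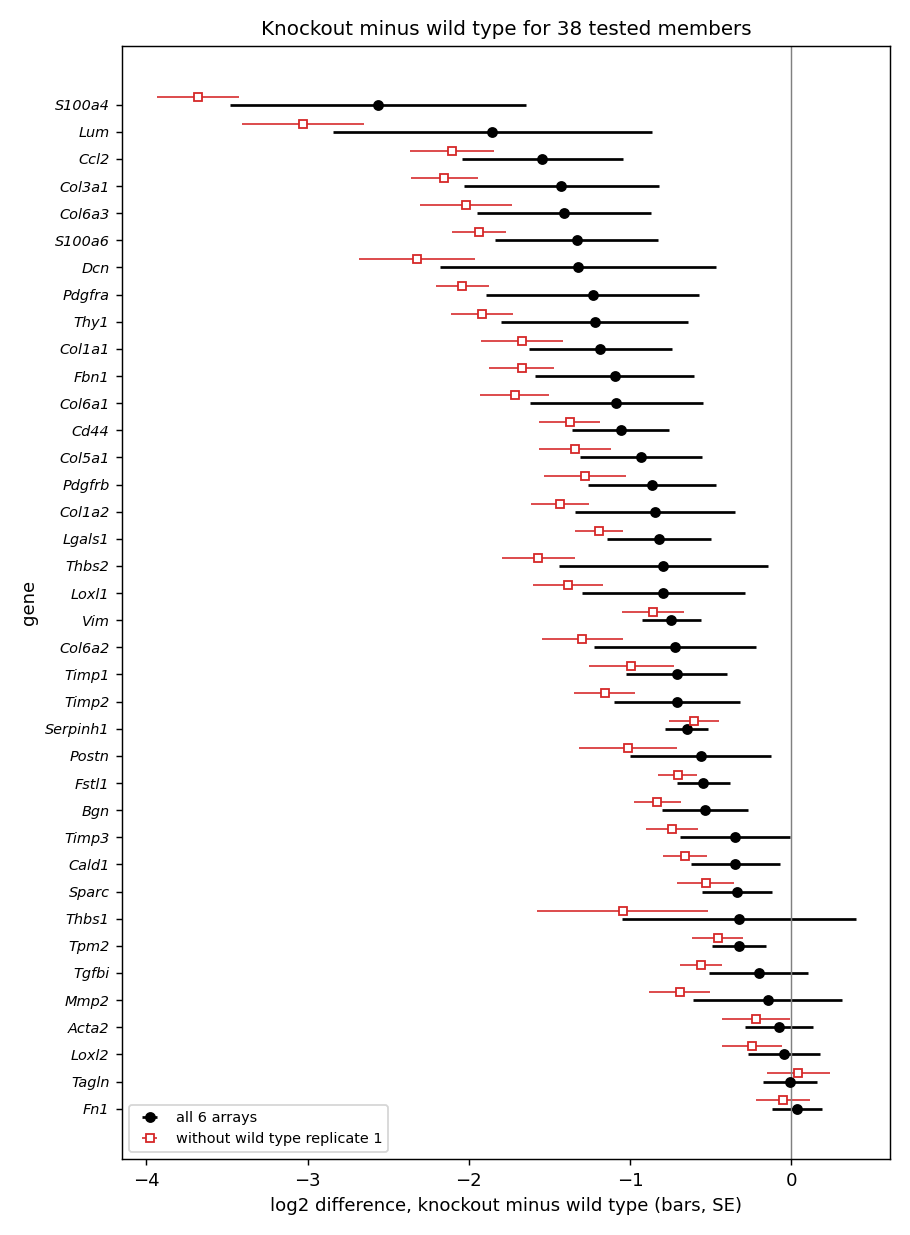
Log2 difference (knockout minus wild type, horizontal) with its SE for the 38 tested members, from all 6 arrays (filled circles) and without wild type replicate 1 (open squares). Without that array S100a4 moved from -2.57 to -3.68 and Lum from -1.85 to -3.03, whereas Serpinh1 moved from -0.65 to -0.60.

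Some members are close neighbours in the genome. On mm9, the probes of S100a4 and S100a6 start 8.25 kb apart, those of Col3a1 and Col5a2 25.6 kb, those of Dcn and Lum 55.0 kb and those of Col6a1 and Col6a2 113 kb. Where a member had several tested probes, the log2 differences lay within 0.02 of each other for Cald1, 0.05 for S100a4, 0.12 for Tpm2, 0.14 for Loxl1 and 0.18 for Cd44. The gap was 0.47 for Loxl2 and for Sparc, the members whose probes differed in sign.

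Other genes of the same tissue type were counted from lists that exclude the members. Over all tested genes, 53.6% were negative and 0.509% were called. At an unadjusted p under 0.05 in limma, 12.1% of all genes were lower and 9.64% higher. Of 53 other matrix genes, 49 were tested: 40 had a negative difference, 0 were called, 5 were lower and 3 higher at an unadjusted p under 0.05, and the median was -0.46. Those with the smallest p were P4ha2, a collagen prolyl hydroxylase, at 0.73 ± 0.16 (limma adjusted p = 0.107), and Has2, a hyaluronan synthase, at -0.81 ± 0.20 (adjusted p = 0.122). Of 33 other fibroblast genes, 31 were tested, 23 were negative, 0 were called, 4 were lower and 3 higher unadjusted, and the median was -0.38. Nt5e, the ectonucleotidase CD73, differed by -1.15 ± 0.18 (adjusted p = 0.0613) and Gas1, a growth arrest gene, by 0.47 ± 0.14 (adjusted p = 0.156).

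By array, both lists had the order of the members. The median deviation of the other matrix genes was -0.51, 0.71 and 0.50 across wild type replicates 1 to 3 and -0.51, -0.05 and -0.22 across knockout replicates 1 to 3. The other fibroblast genes gave -0.50, 0.53 and 0.58 in the wild type cultures and -0.31, -0.19 and -0.21 in the knockout cultures. Contractile genes gave 0.07, 0.01 and -0.06 in the wild type cultures and -0.07, 0.01 and 0.06 in the knockout cultures. Of the 14 tested genes of that list, 6 were lower and 2 higher unadjusted, against 12.1% and 9.64% of all genes. None was called, where 0.509% of all genes were, and the median was 0.08. The flat medians thus leave out single genes that were lower or higher. Tpm1, a tropomyosin, differed by 0.58 ± 0.17 and Myl9, a myosin light chain, by -0.77 ± 0.23 (adjusted p = 0.151 and 0.155).

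**Figure D5:**
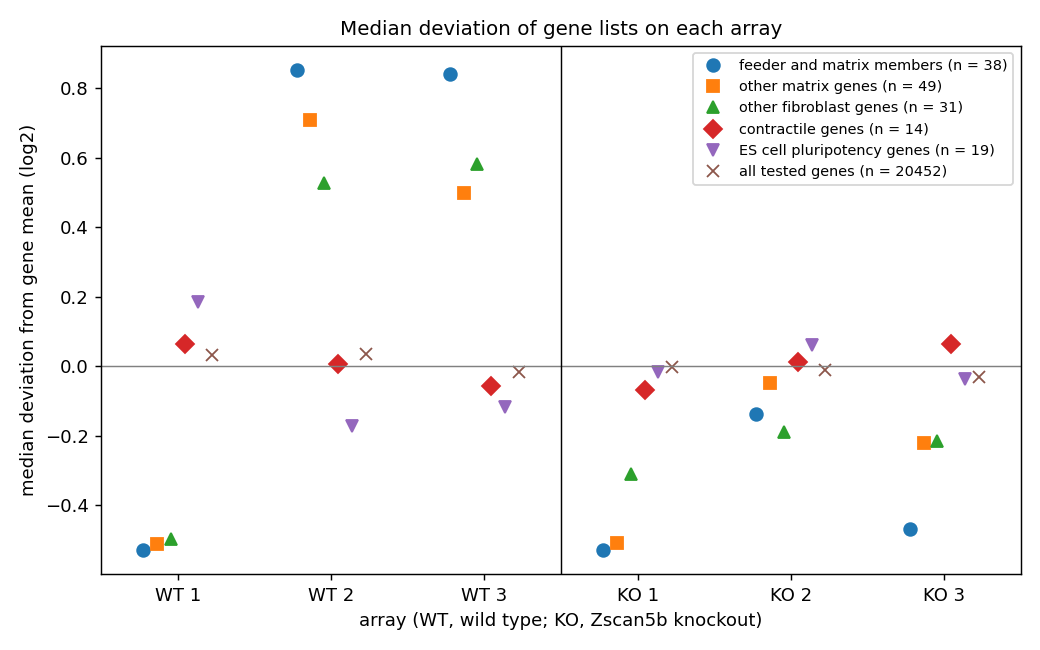
Median over genes of the log2 deviation from each gene's mean (vertical) on each of the 6 arrays (horizontal) for the members, 4 further lists and all tested genes. The members, other matrix genes and other fibroblast genes are high in wild type replicates 2 and 3 and low in wild type replicate 1 (-0.53, -0.51 and -0.50), whereas contractile and pluripotency genes stay between -0.17 and 0.18.

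The summed signal of the members, as a percent of the 75th percentile, was 26831, 51362 and 45135 across wild type replicates 1 to 3 and 26361, 30519 and 24587 across knockout replicates 1 to 3. Wild type replicates 2 and 3 stood apart from the other 4 cultures on this sum. The sum is weighted to the brightest probes, those of Sparc, Fn1 and S100a6, which read 7.44, 6.08 and 5.93 in wild type replicate 2. Pluripotency genes, the markers of the ES cells themselves, varied little in sum, which ranged from 54933 to 59708 in wild type and from 55007 to 59321 in the knockout. Their median deviation of 0.18 in wild type replicate 1 stood against -0.17 and -0.12 in wild type replicates 2 and 3, the opposite order to the members. This did not extend to the knockout. There the pluripotency genes gave -0.02, 0.06 and -0.04 in replicates 1, 2 and 3, where the members gave -0.53, -0.14 and -0.47. Knockout replicate 2 was the highest knockout array for both lists. Of 19 tested pluripotency genes 0 were called, where 0.509% of all genes were, and the median difference was 0.01. Pou5f1, the core pluripotency factor Oct4, differed by -0.47 ± 0.10 (limma adjusted p = 0.104), and Nanog by 0.66 ± 0.22 (adjusted p = 0.175). The share of feeder RNA in each culture was not measured, and its part in the members' order was not tested.

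Markers of other cell types were counted in the same way, and 0 genes of these lists were called, where 0.509% of all genes were. Extraembryonic endoderm, a cell type that also makes matrix, had 14 tested genes with a median difference of -0.04. Its summed signal was 2537 to 3827 in wild type and 2629 to 2983 in the knockout, and 13 to 15 of its 20 probes were well above background on each array. Its untested genes were Afp and Ttr, known from the visceral type, which were not well above background on any array. Sox7 differed by -1.25 ± 0.22 (limma adjusted p = 0.0720) and Dab2 by -1.22 ± 0.19 (adjusted p = 0.0770, without wild type replicate 1, whose spot was marked as an outlier). That list shares Pdgfra with the members. Endoderm markers had a median deviation of -0.43, 0.34 and 0.00 in wild type replicates 1, 2 and 3. It was -0.26, 0.05 and 0.08 in knockout replicates 1, 2 and 3. Wild type replicate 3 thus lay below knockout replicates 2 and 3, unlike in the members. The part of endoderm markers in the members' result was not tested.

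In the sentences that follow, values in brackets are log2 differences of the genes with the smallest p. Macrophage genes had 12 tested members with a median difference of 0.08 and a summed signal of 1019 to 1083 in wild type and 1092 to 1264 in the knockout (Aif1 -0.83, Cd68 0.41). The median difference was -0.16 for 7 endothelial genes (Esam -1.02, Kdr -0.17), with Cdh5, Emcn and Tie1 not well above background on any array. It was 0.19 for 10 keratinocyte and epithelial genes (Krt5 -0.88, Krt8 1.18) and -0.26 for 6 skeletal muscle and cartilage genes (Col2a1 0.74, Ttn -1.19), with Myod1, Myf5 and Matn1 not well above background. It was 0.39 for 7 mesoderm genes (Eomes 0.77, Bmp4 -0.78), 0.17 for 10 neuroectoderm genes (Olig2 -0.58, Six3 0.47) and -0.03 for 4 trophoblast genes (Prl3d1 -0.47, Krt7 1.10). None of these 7 lists had the order of arrays seen in the members, by their medians on each array.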

How the data were processed

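Gene expression was measured on 6 Agilent arrays of 1 colour, 3 per genotype, grouped by sample title. The deposited scanner tables hold spot intensity. The background was subtracted and detrended by Feature Extraction (10.7.3.1 per the file headers), but 10.3.1.1 per the submitters' processing notes. The authors' series table holds log2 values with each probe's median at 0 and its column scaling not given in the sources used here, and it served as an alternative. Positions are mm9 as in the scanner tables.

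Control spots and outlier-marked spots were dropped, the log2 of the processed signal was averaged over the spots of a probe and the array's 75th percentile was subtracted. Probes well above background on at least 3 arrays and with a value in both groups (26647) were compared in limma 3.58.1 (lmFit, eBayes, two-sided; R 4.3.3, package data.table in version 1.17.8), with Benjamini-Hochberg adjustment over all tested probes and a threshold of 0.05. For a fold at dim probes, signals of the dim group alone were raised to the lowest signal well above background on their array where below it. The mean of that group was set against the measured mean of the other group, including arrays where the probe was not detected. Such a fold is not a strict lower limit. No spot was saturated. The number of arrays limits the precision, and p-values measure the spread between these cultures. The method was tested on simulated data.

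The members and all lists were chosen with earlier results of these data known, and no list was tested. Every member was named. Array values were given for, in each role, the genes with the smallest p, largest difference and smallest difference, and for other lists the 2 genes with the smallest p. Background correction, scaling, detection filter, array weights, a trended prior, a replicate block and leaving out each array were tried as alternatives. Keeping marked spots was added after the data were seen.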

Additional observations from a re-analysis of the deposited data

How the results depend on the processing

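The members' median stayed negative in all 17 alternatives, from -1.24 (without wild type replicate 1) to -0.54 (without wild type replicate 2) over the fits that leave out an array. It stayed at -0.77 with the trended robust prior, the replicate block and only probes detected on all 6 arrays. Those settings left each member's difference as it was, so they could not turn a sign. Between 0 and 19 member probes were called in those fits, all 19 without wild type replicate 1, and 0 in each of the other alternatives. Over all probes, 124 were called with the chosen settings. The count was 0 with normexp followed by quantile normalisation, with no detection filter, with only probes detected on all 6 arrays, with a trended robust prior and with the replicate block. It was 231 with median centring and 840 with array weights, and it ran from 0 to 2557 when an array was left out: 640 without wild type replicate 1, 2557 without wild type replicate 2 and 0 without wild type replicate 3 or any knockout replicate. The cause was not tested. For 31 members the sign never turned. For 7 it did, each with a difference smaller than its SE under the chosen settings. Fn1 was -0.018 with median centring, Thbs1 0.17, Loxl2 0.13, Mmp2 0.10 and Tagln 0.040 with array weights, Tagln 0.15 with normexp followed by quantile normalisation and 0.11 with quantile normalisation alone, and Loxl2 0.19 as a mean over probes. Over the fits that leave out an array, Fn1 ran from -0.051 to 0.18, Thbs1 from -1.05 to 0.46, Tgfbi from -0.56 to 0.015, Loxl2 from -0.24 to 0.12, Mmp2 from -0.69 to 0.21, Tagln from -0.16 to 0.091 and Acta2 from -0.26 to 0.049. Same-numbered arrays of the genotypes correlated at 0.16, 0.23 and -0.14 in their deviations, so the numbers were not taken as pairs. With the replicate block 0 member probes were called, as were 0.0% of all probes, and not every array correlated best with its own number. At an unadjusted p under 0.05 in that limma fit, 19 of the 38 member genes were lower and 0 higher. The shares of all genes were 10.5% and 8.7%. A slide block could not be fitted, since each genotype had its own slide. Dim signal limits Col5a2 to an untested fold.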
